A study of Rattus norvegicus with 58 samples.

Results

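Among 31042 probe sets measured in rat liver, 40 varied little among outbred heterogeneous stock (HS) rats and yet differed at least 2-fold between inbred strains. These transcripts were chosen by their readout: 1 gene symbol, a mean above 6 over all 58 arrays, a pooled SD within the glucose groups of HS rats under 0.2, a range of the 6 strain means of 1 or more, and both arrays of each strain within 0.5, all on the log2 scale. Of the 31042 probe sets, 20826 carried 1 symbol, and the 40 are drawn from 10384 of these that had a mean above 6. Echdc2 and Cyp4v3 met the same limits and were left out by the rule.

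Liver RNA came from male rats aged 17 weeks and fasted overnight, each on its own array, by a two-cycle amplification protocol with biotin label. The HS rats had normal glucose tolerance (23 arrays) or were glucose-intolerant (23 arrays), and the inbred rats were ACI, BN, BUF, F344, M520 and WKY, with 2 arrays each. The glucose group was read from the sample titles, since a description given for intolerant animals names both normal tolerance and intolerance. Whether both rats of a strain shared a litter or a day is not in the labels, so p-values reflect the spread between the arrays at hand, whose number limits the precision. Scan dates are not analysed here, so a difference between HS and inbred rats and a difference between array batches cannot be told apart.

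HS rats descend from a cross of inbred founder strains, and each animal carries a mosaic of founder chromosome segments. The 6 strains measured here are among those founders, and the other founders were not analysed here. Where 1 founder carries a variant that sets the level of a nearby gene, outbred descendants that inherited that segment can differ from the rest in the level of its transcript. The liver transcripts described here include sorting receptors, secreted proteins, metabolic enzymes, mitochondrial proteins and proteins of the nucleus.

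The arrays agreed closely. Paired arrays of 1 strain correlated at 0.989 (BUF) or higher, array medians lay between 5.33 and 5.39, and no 2 arrays held identical values. Hepatocyte markers were above the array median for 13 of 13 measured genes, with a mean log2 level of 13.4 to 13.7 over the HS arrays. Of 10 measured lymphocyte markers, 1 was above the array median.

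The limits on spread and range cut into a cloud in which both quantities were related. Of 5830 probe sets with an HS SD under 0.2, 72 had a strain range of 1 or more and the 40 (0.686%) also met the limit on the arrays of a strain. Of 4554 with a larger HS SD, 333 (7.31%) met the limits on range and on the arrays of a strain. Within the 40, the HS SD ran from 0.12 to 0.20 with a median of 0.17, and the strain range ran from 1.0 to 2.77 with a median of 1.12. The SD of the 6 strain means was 1.77 to 6.65 times the HS SD, with a median of 2.41. From the lowest to the highest of the 46 HS arrays, members spanned 0.549 to 1.24 log2 units. Ccdc127 had the widest HS span, 1.24, and it was the 1 member whose HS span exceeded its strain range (1.04).

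**Figure D1:**
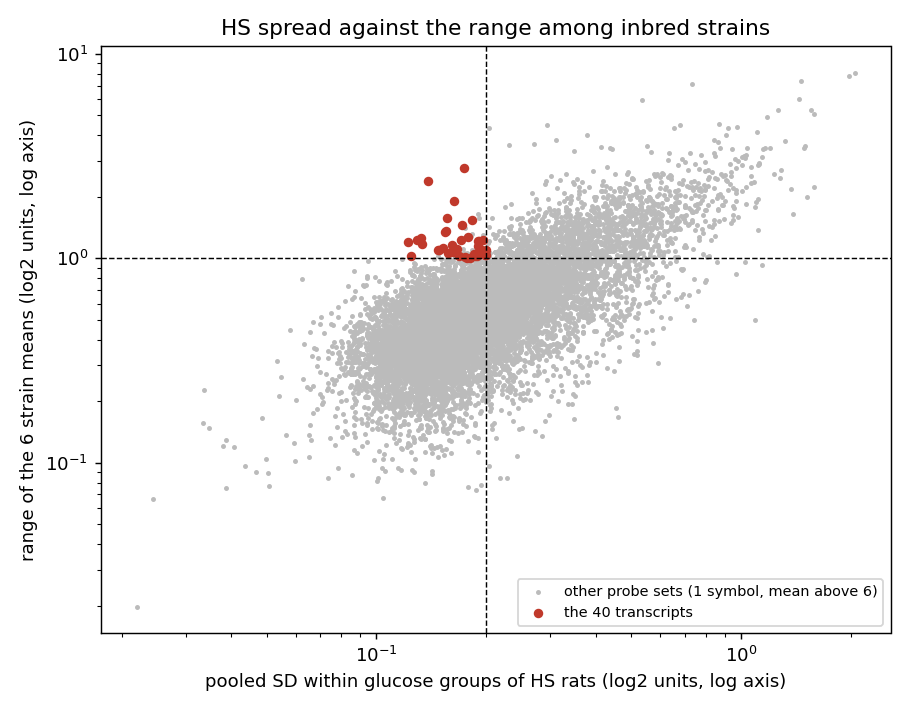
Range of the 6 inbred strain means (vertical, log2 units, log axis) against the pooled SD within the glucose groups of HS rats (horizontal, log2 units, log axis) for 10384 probe sets with 1 symbol and a mean above 6. Red points are the 40 transcripts and dashed lines mark the limits of 0.2 and 1. Most of the 40 sit close to the corner of the limits, and Sort1, with a range of 2.77, and Serpina3m, with 2.39, sit highest.

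Members just inside and outside the limits had nearly equal values. Dstl1 had an HS SD of 0.20 and Mkrn1, left outside, had 0.203. Lrrc59 had a range of 1.0 and Emc8, outside, had 0.999. The 2 arrays of Qprt in BUF differed by 0.487, and the largest pair difference of Vps52, outside, was 0.510. The lowest mean over all arrays was that of Ccdc127, 6.13. Where 1 array of a strain was left out, the limit on the 2 arrays could not apply to that strain. The remaining limits were then met by 248 probe sets without the first BUF array and by 79 without the second WKY array.

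A strain was said to depart from the HS level where its mean differed from the HS mean by 0.5 or more and both of its arrays lay beyond all 46 HS arrays on the same side. Of the 10384 probe sets, 875 (8.43%) had at least 1 departing strain. Among the 40 transcripts, 39 did, which the limit on the strain range makes likely by construction, so nothing is read from that count. There were 51 departures, 26 higher and 25 lower. A single strain departed for 29 members, 2 strains for 8 and 3 strains for Mrpl4 and Nap1l1. For Dstl1 no strain departed: BUF was 0.61 above the HS mean, but 1 of its arrays, at 9.80, lay below the highest HS array at 9.85, and BN, with both arrays below all HS arrays, differed by -0.49.

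WKY departed for 13 members. It was higher for Sort1, Qprt, S100a13, Fstl1, Oxsm, Sat1, Nap1l1, Fbn1 and Lrrc59, 9 members against 1.14% of all 10384 probe sets. It was lower for Serpina3m, Papss2, Flad1 and Tfb2m, 4 members against 0.819%.

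BN departed for 14 members. It was higher for Inhca, Snx5, Olfml3, Nap1l1, Hsp90b1, Ccdc127, Phtf2 and Cyb561d2, 8 members against 1.01% of the 10384. It was lower for Ifi27, Borcs7, Nucb2, Ptprd, Commd8 and Uqcc5, 6 members against 1.13%.

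M520 departed almost entirely downward. It was higher only for Stard10, 1 member against 0.501% of the 10384, and lower for Inhca, Fstl1, Olfml3, Mrpl4, Copz2, Paox, Setd4, Cldn14, Khk, Cyb561d2 and Dcaf5, 11 members against 1.72%. The M520 mean lay below the HS mean for 28 of the 40 transcripts. The median of M520 minus HS was -0.19 over the 40 and -0.04 over the 10384, and M520 departures were lower more often than higher in the wider set too.

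BUF departed higher for Sort1, Oxsm, Polb and Fpgs, 4 members against 0.616%, and lower for Mrpl4 and Clcc1, 2 members against 1.36%. ACI departed higher for Nap1l1, Ercc6 and Ccdc127, 3 members against 0.385%, and lower for Mrfap1, 1 member against 0.26%. F344 departed higher for Stard10, 1 member against 0.308%, and lower for Mrpl4, 1 member against 0.453%. The range that chose the members comes from the same strain means as these departures, so the counts describe the selection.

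**Figure D2:**
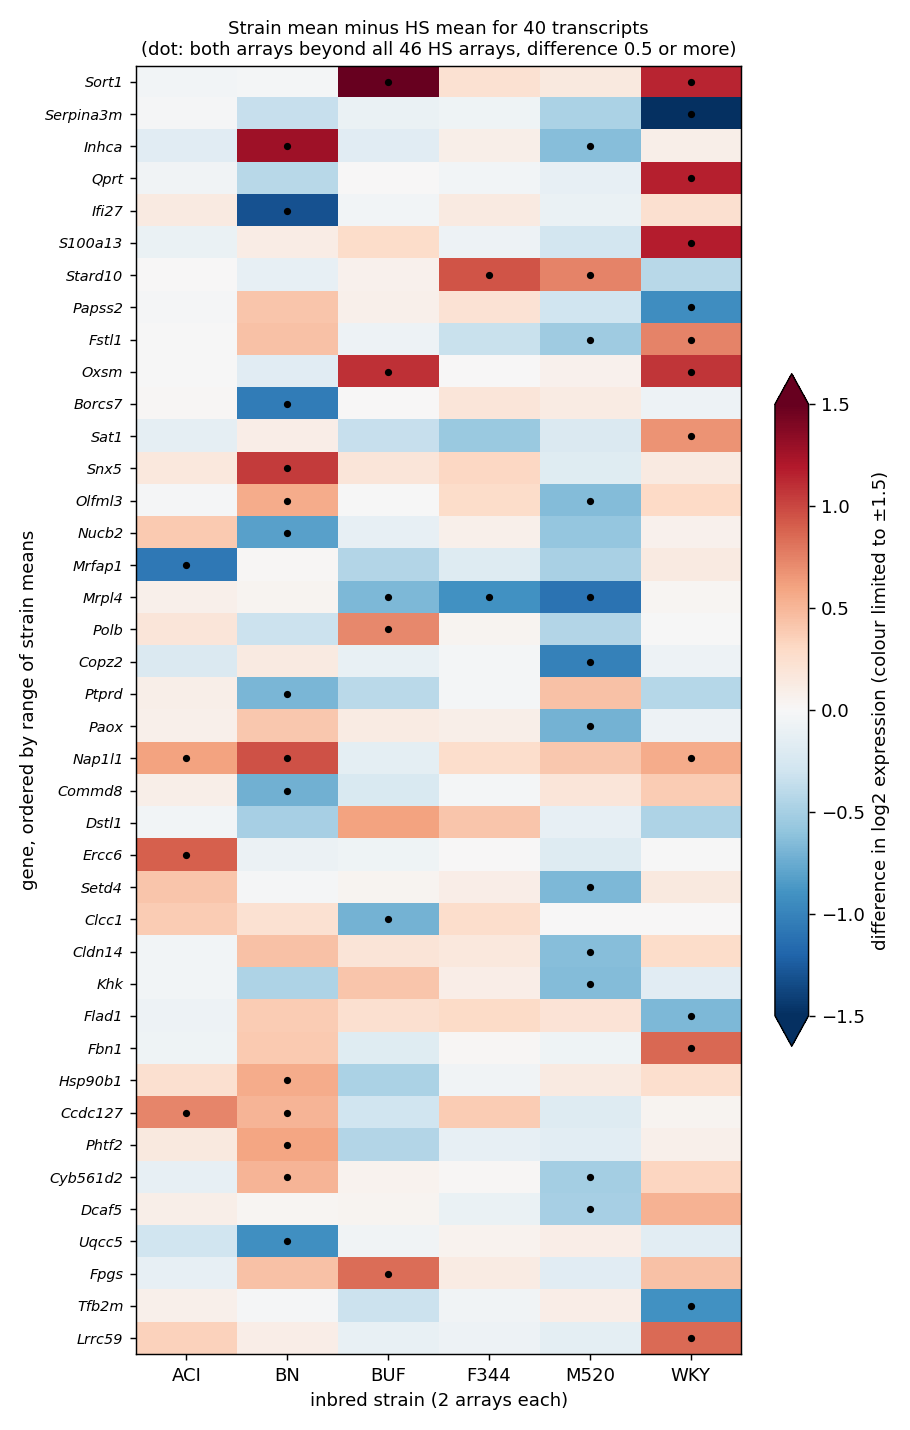
Strain mean minus HS mean (colour, log2 units, limited to 1.5 in either direction) for the 40 transcripts (rows, ordered by strain range) in the 6 inbred strains (columns, 2 arrays each). Dots mark the 51 departures from the HS level. Most rows have 1 or 2 dots, and the M520 column has 11 dots on blue cells and 1 on red.

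The HS mean usually sat with the majority of strains. It lay inside the range of the strain means for 39 members, Serpina3m being the exception, and within 0.2 of the median of the 6 strains for 32. For 26 of the 51 departures no HS array passed the midpoint between the HS mean and the departing strain, and for the other 25 between 1 and 5 of the 46 HS arrays did. The median distance from the departing strain's nearer array to the closest HS array was 0.33. Hsp90b1 in BN had the most HS arrays past the midpoint, 5. The limit on the HS spread and the definition of a departure keep most HS arrays short of the midpoint by construction. These counts therefore describe the selection.

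Promoter sequences are shown for the members with the 3 largest departures, Sort1 in BUF, Serpina3m in WKY and Ifi27 in BN. They are RefSeq sequences of the assembly GRCr8, which was built from a BN rat, and each runs from 250 bases before the annotated start of the gene to 50 bases after it, 5′ to 3′ on the gene's strand. RefSeq promoters were matched for 36 of the 40 transcripts. Capitals mark matches to 3 of the motifs searched on both strands: GGGCGG (the GC box), CCAAT (or ATTGG on the other strand) and GAAA, any 2 bases and GAAA again (the core of the interferon-stimulated response element, ISRE).
Sort1, chr2:198612245-198612544, plus strand: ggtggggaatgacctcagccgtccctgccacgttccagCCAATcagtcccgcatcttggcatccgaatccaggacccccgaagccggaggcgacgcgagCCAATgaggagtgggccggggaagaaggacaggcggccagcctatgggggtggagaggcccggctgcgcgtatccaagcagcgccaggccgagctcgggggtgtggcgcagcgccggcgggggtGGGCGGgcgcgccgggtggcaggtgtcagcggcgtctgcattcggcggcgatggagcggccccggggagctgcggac
Serpina3m, chr6:128836790-128837089, minus strand: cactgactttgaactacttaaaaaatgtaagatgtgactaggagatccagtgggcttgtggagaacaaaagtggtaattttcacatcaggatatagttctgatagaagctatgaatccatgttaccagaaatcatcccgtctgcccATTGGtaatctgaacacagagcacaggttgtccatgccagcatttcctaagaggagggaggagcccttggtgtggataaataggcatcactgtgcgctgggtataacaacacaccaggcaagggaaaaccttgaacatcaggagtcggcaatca
Ifi27, chr6:128355062-128355361, plus strand: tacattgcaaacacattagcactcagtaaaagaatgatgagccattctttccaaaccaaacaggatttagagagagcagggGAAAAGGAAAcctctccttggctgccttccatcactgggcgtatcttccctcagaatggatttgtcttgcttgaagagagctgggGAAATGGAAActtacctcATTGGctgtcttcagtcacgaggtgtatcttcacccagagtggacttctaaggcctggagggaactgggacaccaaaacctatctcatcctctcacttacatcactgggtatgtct

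The Sort1 window held 1 GGGCGG and 2 CCAAT matches, the Serpina3m window 1 CCAAT match, and the Ifi27 window 2 ISRE core matches and 1 CCAAT match. The ISRE core was present in 3.77% of 27457 rat promoters of this length and in 1 of the 36 matched members, Ifi27. GGGCGG was present in 34.9% of all promoters and in 22 of the 36 (61.1%), CCAAT in 37.7% and in 15 of the 36 (41.7%), and TATAAA in 14.3% and in 1 of the 36, Papss2. A match describes letters only, and the set of all promoters includes genes that these livers do not express.

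Proteins that sort cargo between the Golgi, endosomes and lysosomes opened the list. Sort1 encodes sortilin, a receptor that carries proteins from the Golgi to lysosomes. Its log2 level was 9.74 and 9.43 in BUF and 8.07 and 7.92 in WKY, against 6.88 and 6.75 in ACI, 6.85 and 6.81 in BN, 7.11 and 7.06 in F344, and 7.06 and 6.95 in M520. The 46 HS arrays ran from 6.45 to 7.23 with a median of 6.83 and a mean of 6.85 ± 0.17 (pooled SD, n = 46). Neither BUF nor WKY overlapped any HS array, while the other 4 strains lay inside the HS span. BUF was 2.73 above the HS mean, or 6.64-fold, and WKY was 1.15 above it, or 2.21-fold.

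Snx5, a sorting nexin of endosomes, read 10.12 and 10.03 in BN, against 9.25 and 9.13 in ACI, 9.19 and 9.23 in BUF, 9.33 and 9.36 in F344, 8.83 and 8.86 in M520, and 9.27 and 9.06 in WKY. The HS arrays ran from 8.81 to 9.35 around a median of 9.02. BN stood alone, 1.04 above the HS mean. Borcs7, a subunit of the BORC complex that positions lysosomes, showed the reverse in the same strain. It read 7.54 and 7.68 in BN, with 8.61 and 8.74 in ACI, 8.69 and 8.65 in BUF, 8.89 and 8.80 in F344, 8.82 and 8.76 in M520, and 8.62 and 8.54 in WKY. The HS arrays of Borcs7 ran from 8.28 to 9.12, median 8.63, and BN lay 1.05 below the HS mean (difference -1.05).

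Copz2, a subunit of the coatomer of transport vesicles, was low in M520 at 6.58 and 6.92, against 7.53 and 7.57 in ACI, 7.77 and 8.03 in BN, 7.52 and 7.80 in BUF, 7.72 and 7.76 in F344, and 7.68 and 7.71 in WKY. No HS array, from 7.30 to 8.13 with a median of 7.80, reached the M520 level. Commd8, of the COMM domain family, was low in BN at 7.53 and 7.67. Its other arrays read 8.40 and 8.42 in ACI, 8.22 and 7.97 in BUF, 8.38 and 8.22 in F344, 8.49 and 8.52 in M520, and 8.67 and 8.73 in WKY, and the HS arrays 7.78 to 8.69 with a median of 8.34. BN lay below all HS arrays, by 0.11 at the nearest.

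Members of the endoplasmic reticulum moved in different strains. Clcc1, a chloride channel protein of that membrane, read 6.01 and 5.81 in BUF, against 7.06 and 6.94 in ACI, 6.80 and 6.89 in BN, 6.91 and 6.85 in F344, 6.65 and 6.61 in M520, and 6.60 and 6.64 in WKY. Its HS arrays ran from 6.18 to 7.03, median 6.62, all above BUF. Hsp90b1, the chaperone GRP94, read 12.03 and 11.96 in BN, just above the HS span of 11.03 to 11.83. Lrrc59, a ribosome-binding membrane protein, read 10.81 and 10.88 in WKY, above an HS span of 9.60 to 10.35.

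Secreted and matrix proteins made up a further group. Serpina3m is a serine protease inhibitor of the serpin family, and as a member of a large family of similar genes its signal may include close copies. Its level was 9.78 and 10.14 in WKY, against 12.36 and 12.34 in ACI, 11.95 and 12.09 in BN, 12.34 and 12.20 in BUF, 12.40 and 12.21 in F344, and 11.75 and 12.03 in M520. The HS arrays lay between 12.02 and 12.66, median 12.38, with a mean of 12.37 ± 0.14 (pooled SD, n = 46). WKY lay 1.88 below the lowest HS array, and its mean was 2.41 below the HS mean (difference -2.41, 5.30-fold). Without the first WKY array the difference was -2.23 and without the second it was -2.58.

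Inhca, the inhibitor of carbonic anhydrase and a relative of transferrin, departed in both directions. It read 8.77 and 8.52 in BN and 6.66 and 6.81 in M520, with 7.18 and 7.21 in ACI, 7.27 and 7.14 in BUF, 7.62 and 7.30 in F344, and 7.46 and 7.45 in WKY. The HS arrays, 7.06 to 7.84 with a median of 7.36, lay between the BN and M520 arrays and overlapped neither. BN was 2.42-fold above and M520 1.55-fold below the HS mean.

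Fstl1, a secreted follistatin-like glycoprotein, was high in WKY at 7.85 and 7.45 and low in M520 at 6.41 and 6.34. It read 6.96 and 6.83 in ACI, 7.46 and 7.23 in BN, 6.92 and 6.73 in BUF, and 6.41 and 6.74 in F344, and the HS arrays ran from 6.60 to 7.39 with a median of 6.89. The lower WKY array was only 0.06 above the highest HS array, and the WKY difference was 0.55 without the first WKY array and 0.95 without the second. Olfml3, a secreted olfactomedin-like protein, read 6.86 and 7.04 in BN and 5.69 and 5.78 in M520, against 6.52 and 6.23 in ACI, 6.25 and 6.51 in BUF, 6.54 and 6.79 in F344, and 6.88 and 6.5 in WKY. Its HS arrays lay from 5.89 to 6.70, median 6.39, clear of both BN and M520.

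Fbn1, the matrix protein fibrillin, read 7.29 and 6.96 in WKY, above an HS span of 5.76 to 6.63. Nucb2, a calcium-binding nucleobindin, was low in BN at 9.18 and 9.15. It read 10.36 and 10.40 in ACI, 9.76 and 9.96 in BUF, 10.08 and 10.02 in F344, 9.50 and 9.31 in M520, and 9.86 and 10.23 in WKY, with HS arrays from 9.43 to 10.38 and a median of 10.01. M520 straddled the lowest HS array and did not depart.

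In bulk liver, fewer cells of a type and less RNA per cell cannot be told apart. Stellate and matrix marker genes, 11 measured, had a mean log2 level of 6.59 to 7.46 in the WKY arrays, 6.82 to 6.85 in BN, 6.43 to 6.51 in M520 and 6.01 to 7.01 in HS. Over liver endothelial markers, 9 measured, the level was 8.40 to 8.57 in BN, 8.10 to 8.30 in WKY and 7.5 to 7.79 in M520, against 7.29 to 8.19 in HS. Kupffer cell and macrophage markers, 9 measured, lay at 9.09 to 9.38 in WKY, 8.93 to 9.79 in BN and 8.29 to 8.48 in M520, against 7.65 to 9.27 in HS. The order of WKY or BN above M520 was shared by Fstl1, Olfml3 and Fbn1 and by these marker levels. The other strains were less alike. The stellate and matrix level was 6.67 to 6.76 in ACI, above M520, but 6.35 to 6.47 in BUF and 6.36 to 6.46 in F344, overlapping M520. Fstl1 and Olfml3 had their lowest strain mean in M520, and Fbn1 in BUF. The part of the other cells in Fstl1, Olfml3 and Fbn1 was not tested.

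**Figure D3:**
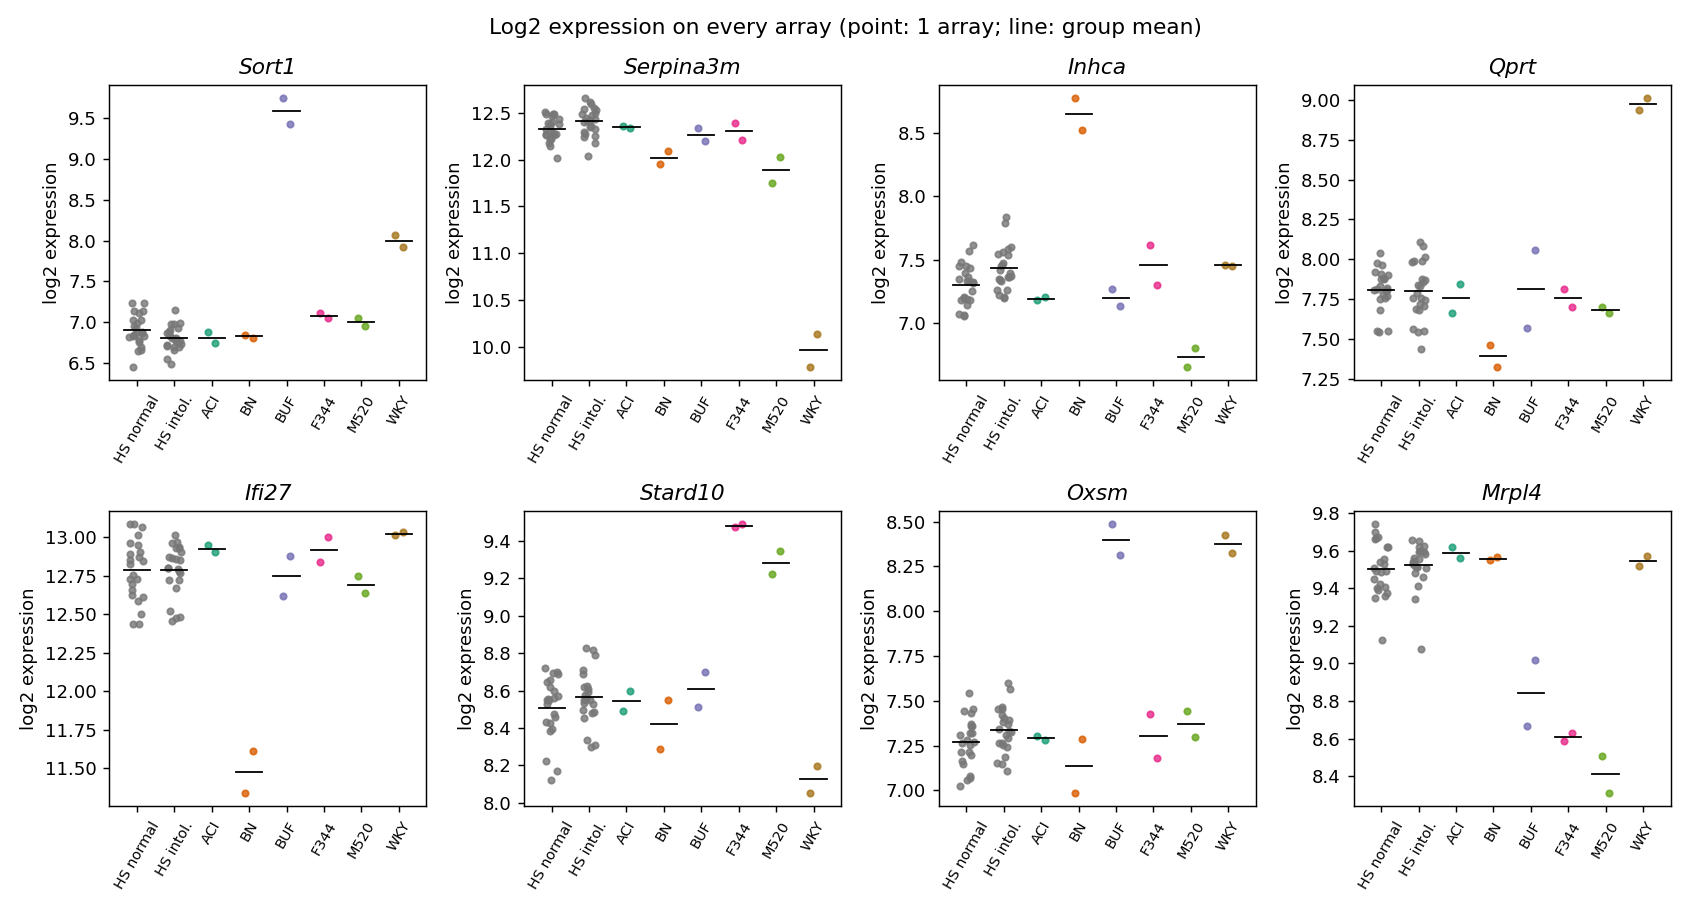
Log2 expression on every array (points) and group means (lines) for Sort1, Serpina3m, Inhca, Qprt, Ifi27, Stard10, Oxsm and Mrpl4, in the HS rats of normal (n = 23) and intolerant (n = 23) glucose tolerance and in the 6 inbred strains (n = 2 each). In each panel the HS points form 1 narrow band, and 1, 2 or 3 strains lie outside it, as for Sort1 with BUF at 9.74 and 9.43.

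Metabolic enzymes and lipid carriers formed the largest group. Qprt, which makes a precursor of NAD from quinolinate, read 8.93 and 9.01 in WKY, against 7.67 and 7.85 in ACI, 7.46 and 7.33 in BN, 7.57 and 8.06 in BUF, 7.81 and 7.70 in F344, and 7.70 and 7.67 in M520. The HS arrays ran from 7.44 to 8.11, median 7.81, and WKY was 2.24-fold above the HS mean. Papss2, which makes the sulfate donor PAPS, was low in WKY at 10.11 and 9.89. It read 10.85 and 10.98 in ACI, 11.27 and 11.42 in BN, 11.07 and 10.94 in BUF, 11.12 and 11.18 in F344, and 10.52 and 10.74 in M520. The Papss2 HS arrays lay from 10.58 to 11.34, median 10.92, all above WKY.

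Stard10, a lipid transfer protein, was high in F344 at 9.48 and 9.49 and in M520 at 9.22 and 9.35. The remaining arrays read 8.49 and 8.60 in ACI, 8.29 and 8.55 in BN, 8.51 and 8.70 in BUF, and 8.05 and 8.20 in WKY, and the HS arrays 8.12 to 8.83 with a median of 8.55. Both high strains cleared the HS arrays, F344 by 0.65 and M520 by 0.39. Oxsm, the ketoacyl synthase of mitochondrial fatty acid synthesis, was high in BUF at 8.49 and 8.31 and in WKY at 8.42 and 8.32. It read 7.30 and 7.28 in ACI, 6.99 and 7.29 in BN, 7.43 and 7.18 in F344, and 7.44 and 7.30 in M520, with HS arrays from 7.02 to 7.60 and a median of 7.31. The strains thus fell into a higher pair and a lower 4, and all 46 HS arrays lay with the lower 4.

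Khk, ketohexokinase, which phosphorylates fructose, was low in M520 at 10.71 and 10.40, against 11.15 and 11.17 in ACI, 10.56 and 10.93 in BN, 11.46 and 11.78 in BUF, 11.30 and 11.30 in F344, and 10.94 and 11.11 in WKY. The HS arrays ran from 10.87 to 11.59 with a median of 11.20. One BN array also lay below that span, but the other did not. Flad1, FAD synthase, was low in WKY at 7.20 and 7.06, with 7.70 and 7.76 in ACI, 8.18 and 8.18 in BN, 7.98 and 8.12 in BUF, 7.99 and 8.20 in F344, and 8.04 and 8.0 in M520. Its HS arrays lay from 7.37 to 8.18, median 7.80. Fpgs, which adds glutamates to folates, read 8.34 and 8.65 in BUF, above an HS span of 7.40 to 8.15.

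Both polyamine breakdown enzymes among the members departed, in different strains. Sat1, which acetylates spermidine and spermine, was high in WKY at 10.82 and 10.55, against 9.90 and 9.86 in ACI, 10.23 and 9.99 in BN, 9.87 and 9.47 in BUF, 9.58 and 9.34 in F344, and 9.81 and 9.79 in M520. Its HS arrays ran from 9.49 to 10.42, median 9.99. Paox, which oxidises acetylated polyamines, was low in M520 at 7.32 and 7.33, against 8.18 and 8.05 in ACI, 8.53 and 8.34 in BN, 8.01 and 8.31 in BUF, 7.98 and 8.26 in F344, and 7.93 and 7.99 in WKY. The HS arrays of Paox lay from 7.69 to 8.47, median 8.03, clear of M520 by 0.36.

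Ifi27, an interferon-induced protein, was low in BN at 11.34 and 11.61, against 12.95 and 12.90 in ACI, 12.62 and 12.88 in BUF, 12.84 and 13 in F344, 12.74 and 12.64 in M520, and 13.01 and 13.03 in WKY. The HS arrays ran from 12.44 to 13.08, median 12.81, and none overlapped BN, whose mean was 2.48-fold below the HS mean. Of 27 measured genes of an interferon response list, 19 (70.4%) passed limma's F test among the 12 inbred arrays (adjusted p under 0.05, Benjamini-Hochberg over all probe sets), against 13.8% of 14217 genes. Ifi27 was the 1 member of that list among the 40. Among pathway lists without a member, that share ran from 0% (oxidative phosphorylation) to 86.4% (class I and II histocompatibility). In BN, 6 of the 27 departed lower from HS, against 0.76% of all genes, among them Igtp, an interferon-induced GTPase (-2.17), and Oas1a, an antiviral oligoadenylate synthetase (-1.87). The median of BN minus HS was -0.43 over the list and 0.02 over all genes. WKY departed higher for 3 of the 27, against 1.01% of all genes, the ubiquitin-like Isg15, its protease Usp18 and Parp9. The list was compiled with earlier results of these data known, so its count is a description.

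Mitochondrial proteins were represented by Mrpl4, Uqcc5 and Tfb2m besides Oxsm. Mrpl4, a protein of the large mitochondrial ribosomal subunit, was low in 3 strains, at 8.67 and 9.02 in BUF, 8.58 and 8.63 in F344, and 8.51 and 8.31 in M520. It read 9.62 and 9.56 in ACI, 9.55 and 9.56 in BN, and 9.52 and 9.57 in WKY, with HS arrays from 9.08 to 9.74 and a median of 9.53. The strains split evenly into 3 near the HS mean and 3 below it, and M520 lay furthest, 2.15-fold below. Tfb2m, a factor of mitochondrial transcription, read 7.26 and 7.25 in WKY, below an HS span of 7.69 to 8.48. Uqcc5, an assembly factor of respiratory complex III, read 5.96 and 5.92 in BN, below an HS span of 6.39 to 7.23.

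Of 64 measured proteins of the mitochondrial ribosome, Mrpl4 included, 55 had an HS SD under 0.2 and 10 (15.6%) passed the F test among strains, near the 13.8% of all genes. Mrpl4, Mrpl15 (-0.55), Mrpl17 (-0.67) and Mrps18a (-0.50, adjusted p = 0.125 in limma's F test) departed lower in M520, against 1.31% of all genes, and Mrpl18 departed higher (0.51), against 0.281%. The median of M520 minus HS was -0.10 over the 64 and -0.01 over all genes. The count of 10 rested on single arrays: it was 3 without the first ACI or the second M520 array, 4 without the second ACI, first BN or first M520 array, 5 without the second BN array, 6 without the first WKY array and 20 without the first BUF array. Lists of oxidative phosphorylation, cytosolic ribosomal proteins, cytochromes P450, conjugation enzymes, proteasome subunits and mitochondrial fatty acid oxidation held no member.

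Members of the nucleus came next. Mrfap1, a partner of the chromatin protein MORF4, was low in ACI at 10.40 and 10.31, against 11.50 and 11.41 in BN, 11.06 and 10.93 in BUF, 11.29 and 11.19 in F344, 10.84 and 11.06 in M520, and 11.69 and 11.43 in WKY. Its HS arrays lay from 11.17 to 11.76, median 11.42, and BUF and M520 also lay below them, by differences under 0.5. Ercc6, which acts in transcription-coupled DNA repair, was high in ACI at 7.77 and 7.57. It read 6.66 and 6.71 in BN, 6.77 and 6.64 in BUF, 6.79 and 6.75 in F344, 6.66 and 6.49 in M520, and 6.87 and 6.68 in WKY, with HS arrays from 6.48 to 7.07 and a median of 6.76. The other 5 strains lay inside the HS span.

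Nap1l1, a histone chaperone, was the member with 3 higher strains, at 8.89 and 8.92 in ACI, 9.23 and 9.29 in BN, and 8.92 and 8.80 in WKY. It read 8.13 and 8.18 in BUF, 8.75 and 8.39 in F344, and 8.57 and 8.83 in M520, and the HS arrays ran from 7.95 to 8.75 with a median of 8.31. Only BUF had a mean below that of HS. Polb, DNA polymerase beta of base excision repair, was high in BUF at 7.66 and 8.02, against 7.30 and 7.31 in ACI, 6.73 and 6.87 in BN, 7.20 and 7.12 in F344, 6.64 and 6.72 in M520, and 7.16 and 7.06 in WKY. Its HS arrays lay from 6.82 to 7.49, median 7.11. The BUF difference was 0.90 without the first BUF array and 0.54 without the second.

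Setd4, a lysine methyltransferase, was low in M520 at 6.96 and 7.24, against 8.19 and 8.20 in ACI, 7.73 and 7.79 in BN, 7.83 and 7.80 in BUF, 7.95 and 7.81 in F344, and 7.92 and 7.92 in WKY. Its HS arrays ran from 7.39 to 8.07, median 7.81, so ACI lay just above and M520 below. Dcaf5, a substrate adaptor of a ubiquitin ligase, was low in M520 at 5.81 and 5.57, where the lowest HS array read 5.82. That separation of 0.01 is the narrowest among the 51 departures.

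Further members bind calcium or sit in membranes. S100a13, a small calcium-binding protein, was high in WKY at 7.65 and 7.72, against 6.39 and 6.42 in ACI, 6.66 and 6.55 in BN, 6.63 and 6.91 in BUF, 6.29 and 6.56 in F344, and 6.21 and 6.24 in M520. The HS arrays lay from 6.22 to 6.91, median 6.49, all below WKY. Ptprd, a receptor tyrosine phosphatase, was low in BN at 9.59 and 9.70, with 10.41 and 10.44 in ACI, 10.16 and 9.72 in BUF, 10.47 and 10.13 in F344, 10.87 and 10.68 in M520, and 9.80 and 10.02 in WKY. Its HS arrays ran from 9.95 to 10.71, median 10.35, and single arrays of BUF and WKY also fell below them.

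Cldn14, a claudin of tight junctions, was low in M520 at 6.89 and 6.71, against 7.41 and 7.37 in ACI, 7.86 and 7.89 in BN, 7.55 and 7.71 in BUF, 7.56 and 7.64 in F344, and 7.81 and 7.61 in WKY. Its HS arrays lay from 7.12 to 7.78, median 7.46. Cyb561d2, of the cytochrome b561 family, read 7.84 and 7.74 in BN and 6.68 and 6.85 in M520, on either side of an HS span of 6.97 to 7.53. The last 3 members are given without a role. Dstl1 read 9.23 and 9.46 in ACI, 8.92 and 8.88 in BN, 9.80 and 10.19 in BUF, 9.71 and 9.91 in F344, 9.18 and 9.35 in M520, and 8.85 and 9.01 in WKY, around HS arrays from 8.99 to 9.85. Ccdc127 read 6.85 and 6.81 in ACI and 6.66 and 6.55 in BN, above an HS span of 5.23 to 6.47, and Phtf2 read 8.76 and 8.54 in BN, above a span of 7.68 to 8.40.

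Second probe sets of the same genes are a measure that the choice of members did not use. There were 22 such probe sets for 16 members, and 24 members had a single probe set. Among the 12 inbred arrays, 9 of the 22 (40.9%) passed limma's F test, in Sort1, Qprt, Ptprd, Nap1l1, Fbn1, Dcaf5 and Lrrc59, against 11.9% of all 31042 probe sets and 19.1% of 12809 with a mean above 6. In the strain where the member stood furthest from HS, 20 of the 22 differed from HS in the same direction. Among them were Polb, by only 0.0010, and Clcc1, by only -0.03. The share over all probe sets was not analysed for direction alone, and probe sets of the same gene were counted separately. Of the 22, 2 (9.09%) departed alike, against 0.637% of all probe sets in the same mix of strains and directions. Of the 19 with a mean above 6, 7 passed the F test. The count of 9 was 5 without the first ACI array or the first M520 array, 6 without the second ACI, second BN or second M520 array, and 14 without the first BUF array.

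The second Sort1 probe set gave the clearest match. It read 6.57 and 6.79 in BUF and 4.56 and 4.36 in WKY, against 3.44 and 3.81 in ACI, 3.98 and 3.94 in BN, 3.97 and 3.79 in F344, and 3.68 and 3.75 in M520. The HS arrays ran from 3.43 to 4.07, so BUF and WKY again lay above all of them, by mean differences of 2.91 and 0.69. The HS mean of 3.77 and the WKY mean of 4.46 on this probe set were below the array medians of 5.33 to 5.39, and detection over background was not analysed here, so the sizes are uncertain. For Nap1l1, 1 of the 2 further probe sets read 7.92 and 7.91 in BN against an HS span of 6.40 to 7.65, a difference of 0.92. On it ACI (0.52) and WKY (0.39), which departed higher on the member, did not depart. The other Nap1l1 probe set differed by 0.12 in BN, by -0.36 in ACI and by -0.30 in WKY. Its call (adjusted p = 0.041 in limma's F test) was lost in 10 of the 12 fits that left out 1 array, all but those without a BUF array, and its adjusted p was 0.052 with the replicate number as a block.

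Fbn1 had a second probe set with 7.51 and 6.93 in WKY, a mean 0.91 above HS, and adjusted p = 0.0053 in limma's F test. Its lower WKY array did not clear the highest HS array, 6.94, so WKY did not depart on it. Ptprd had 2 further probe sets, which differed from HS in BN by -0.46 and -0.63, the second on a dim probe set with an HS mean of 4.55. Their adjusted p values were 0.021 and 0.029, and the calls were lost without the first M520 array (0.076 and 0.179). The first Ptprd set was also lost without the second ACI array (0.051) or the second BN array (0.054), the other without the first ACI array (0.054), the second BUF array (0.055) or the second M520 array (0.110). The second probe sets of Dcaf5 and Lrrc59 were 0.36 and 0.34 above HS in WKY (adjusted p = 0.037 and 0.012 in limma's F test). On that of Lrrc59, WKY (7.40 and 7.65) lay inside the HS span of 6.39 to 8.01, and ACI stood higher (0.47). The Dcaf5 member departed in M520 and not in WKY, and its second probe set differed by only -0.01 in M520. The Dcaf5 call was lost in 10 of the 12 fits without 1 array, and the Lrrc59 call in the fit without the first ACI array.

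For some genes the probe sets disagreed. The second Qprt probe set passed the F test (adjusted p = 0.0049), but WKY lay 0.35 below HS on it (difference -0.35) and BUF 0.47 above. The second Inhca probe set differed by -0.27 in BN, where the member was 1.28 higher, and did not pass the test (adjusted p = 0.373). The second Stard10 probe set (adjusted p = 0.192 in limma's F test) differed by 0.16 in F344 and by -0.18 in M520. The member departed higher in both strains. In each case the second probe set was the brighter, with HS means of 10.66 for Qprt, 13.21 for Inhca and 12.45 for Stard10. The HS means of their member probe sets were 7.81, 7.37 and 8.54. The departures of these genes thus rest on the dimmer probe set. The second Clcc1 probe set differed by only -0.03 in BUF, where the member was lower (difference -0.71). On the 2 further Ccdc127 probe sets F344 departed higher (1.02 and 0.61). ACI (0.61 and 0.51) and BN (0.58 and 0.30) did not depart on them. On the 2 further Fstl1 probe sets neither WKY (0.14 and 0.48) nor M520 (-0.03 and -0.28) departed. BN was below HS on the further Borcs7 probe sets (-0.33, -0.78 and -0.55) but did not depart, and none passed the F test. On the first of these, BUF (-0.37) and M520 (-0.43) lay lower than BN, and on the next BUF (-0.75) lay near BN. The second Fpgs probe set did not pass limma's F test (adjusted p = 0.137), and on it BN (0.66) lay above BUF (0.28). Which part of the transcript each probe set reads was not analysed here. Papss2 had a difference of -1.15 in WKY on its second probe set, larger than the member's -0.93, with an adjusted p = 0.071.

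**Figure D4:**
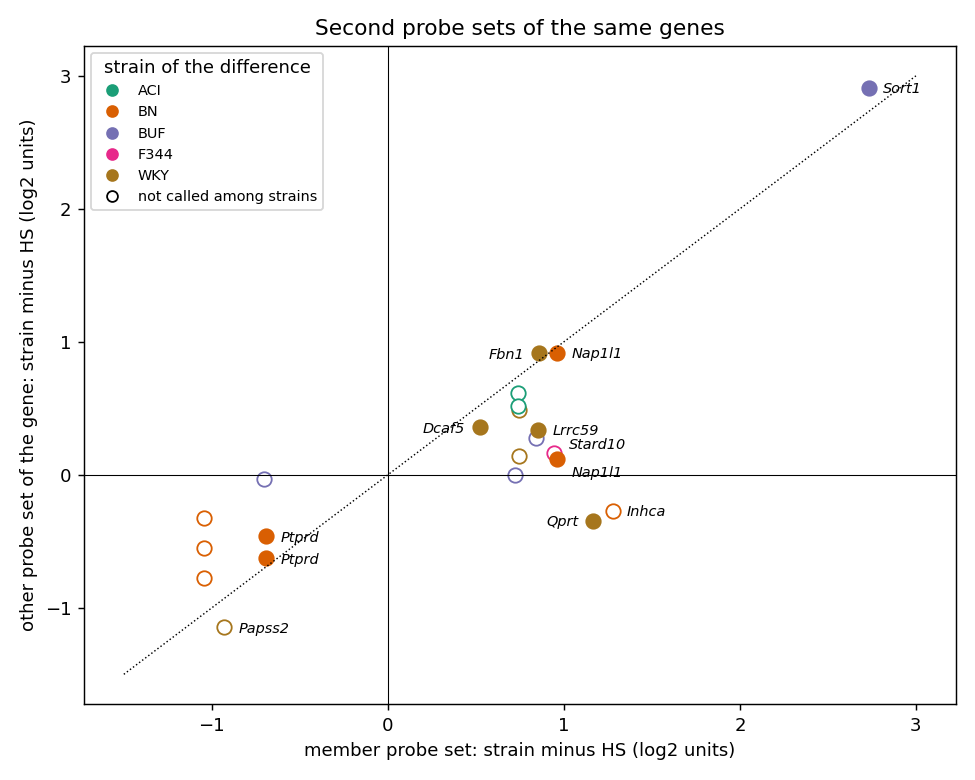
Strain minus HS (log2 units) on 22 further probe sets (vertical) against the same difference on the member probe set of the same gene (horizontal), in the strain where the member stood furthest from HS. Colours give the strain, filled points passed limma's F test among the 12 inbred arrays, and the dotted line marks equal differences. Sort1 lies near the line at 2.73 and 2.91, and Qprt and Inhca lie below 0 on the vertical axis.

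The members were spread over 15 chromosomes. Order along the chromosome was taken from the RefSeq annotation of GRCr8, which held all 40. Close to each member, the 5 nearest protein-coding genes on each side were examined, and 280 genes, in 282 pairs with a member, were measured. Of the 280, 49 (17.5%) passed the F test among strains, against 13.8% of all 14217 genes. That count was 30 and 31 without the first or second ACI array, 28 and 31 without the first or second M520 array, and 74 without the first BUF array.

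In the member's own top strain, the neighbour departed from HS in 10 of the 282 pairs (3.55%), and in 6 (2.13%) it did so in the direction of the member. Over all 14217 genes in the same mix of strains, 1.5% departed, and 0.843% in the direction of the member. Ifi27l2b, next to Ifi27 and of the same family, was 1.04 lower in BN (difference -1.04), and Serpina5, next to Serpina3m, was lower in WKY by a difference of -1.64. These 2 pairs share a gene family with the member. Eng lay next to Fpgs (1.0 in BUF), Actn1 next to Dcaf5 (0.70 in WKY, where Dcaf5 itself did not depart), and Eid1 near Fbn1 (1.28 in WKY). Stab2 lay near Hsp90b1 (0.80 in BN). Stab2 is also a liver endothelial marker, and the level of those markers was 8.40 to 8.57 in BN against 7.29 to 8.19 in HS. The part of endothelial cells in the Stab2 difference was not tested.

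In the other direction, Cyp17a1, a steroid hydroxylase adjacent to Borcs7, was 5.08 higher in BN, where Borcs7 was 1.05 below HS (difference -1.05). Plat near Polb (-0.69 in BUF), Uqcc6 next to Hsp90b1 (-0.86 in BN) and Csrp2 near Nap1l1 (-0.97 in BN) also opposed their member. Of the 10 nearest coding genes around Sort1, all measured, Elapor1 passed the F test (0.83 higher in BUF, adjusted p = 0.027) and 9 did not.

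Some members lie near each other. Setd4 and Cldn14, with 9 coding genes between them, were both low in M520. Sort1 and Clcc1, also 9 genes apart, both departed in BUF, Sort1 higher and Clcc1 lower. Ifi27 and Serpina3m, with 14 genes between them, departed in BN and in WKY. Flad1 and S100a13, with 36 between, departed in WKY in opposite directions.

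Glucose tolerance was the comparison named in the study's design. The spread within glucose groups chose the members, but their difference did not. Limma called 0 of 31042 probe sets at an adjusted p under 0.05 (0%), and 2483 (8%) had an unadjusted p under 0.05. Of the 40 transcripts 0 were called and 6 had an unadjusted p under 0.05, and the smallest adjusted p among them was 0.50. Differences of intolerant minus normal ran from -0.14 for Nucb2 to 0.13 for Inhca.

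Inhca ran from a mean of 7.30 ± 0.16 (SD, n = 23) in normal to 7.43 ± 0.17 (SD, n = 23) in intolerant rats, and Khk differed by 0.12. Nucb2 and Lrrc59 differed by -0.14 and -0.12, Ptprd by 0.10 and Snx5 by -0.09. The ranges of both glucose groups overlapped for all 40 members. No 95% interval reached a difference beyond 0.256 in either direction, and the limit on the HS spread makes these intervals narrow by construction. These 6 did not pass the adjustment.

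**Figure D5:**
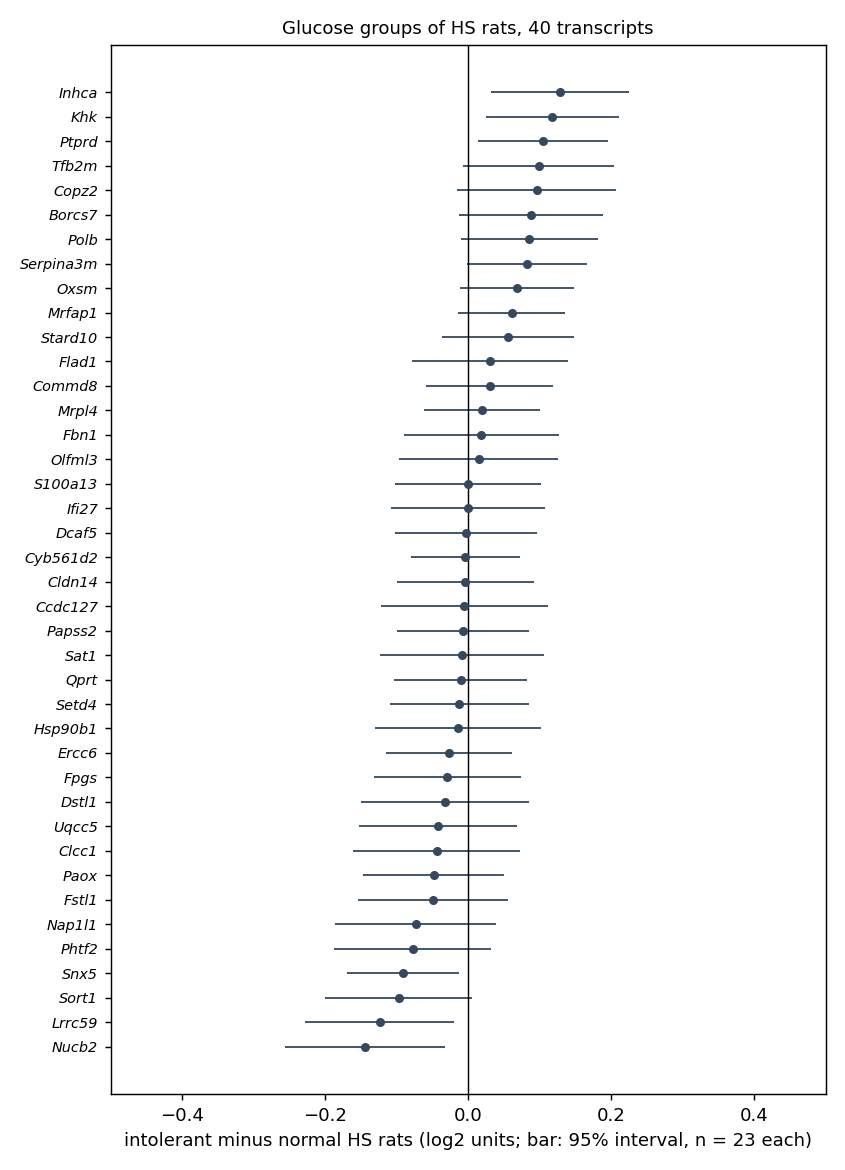
Intolerant minus normal HS rats (log2 units, n = 23 each) for the 40 transcripts, with 95% intervals of limma's fit as bars. Points run from -0.14 for Nucb2 to 0.13 for Inhca, and the bars of 6 members leave out 0 before adjustment.

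Set against the mean of the 6 strains, HS rats differed at 1569 of 31042 probe sets (5.05%, limma with Benjamini-Hochberg). Among the members, 15 passed, 7 higher and 8 lower in HS, and the differences ran from -0.70 for Sort1 to 0.57 for Serpina3m. The strain means that chose the members enter this contrast, so these values only describe how far a departing strain moved the inbred mean. Leaving out single inbred arrays gave 689 to 2185 probe sets in place of 1569.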

How the data were processed

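Values were analysed as deposited: log2 expression of 31042 probe sets on 58 rat liver arrays. The submitters' processing notes name Partek, while the background correction and normalization used by the authors are not given in the labels or the files. Symbols came from the platform annotation (20826 probe sets with 1 symbol, 436 with several, 9780 with none), and a gene in a list is its probe set of highest mean. The members, the gene lists and the tests were chosen with earlier results of these data known. Tests among strains used the 12 inbred arrays and limma 3.58.1 in R 4.3.3 (moderated F test, 6 residual degrees of freedom), glucose groups among the 46 HS arrays (44), and HS against strains over all arrays, each without covariates, with Benjamini-Hochberg adjustment over all probe sets and a threshold of 0.05. The tests were checked on simulated data. Members are named by departing strain, and every inbred array is given for the 30 of largest range. Alternatives covered the limits of the rule, quantile normalization, median centring, a mean above 6, variance estimation, a replicate block, and fits without 1 array. Same-numbered arrays deviated together in some pairs of strains: of 15 correlations between -0.15 and 0.42, 3 were over 0.1. Numbers were not taken to pair arrays in the main fit, and the replicate block is the alternative.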

Additional observations from a re-analysis of the deposited data

Results flagged for a closer look

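In 4 of the 40 transcripts 1 strain departed upward and another downward from the HS level, each by 0.5 or more on average and with both arrays beyond all HS arrays. Inhca was 1.28 above the HS mean in BN and below it in M520 (difference -0.63). Fstl1 was 0.75 above in WKY and below in M520 (-0.53). Olfml3 was 0.56 above in BN and below in M520 (-0.66). Cyb561d2 was 0.51 above in BN and below in M520 (-0.51). M520 was the lower strain each time. On the further probe sets of Inhca and Fstl1 no strain departed, and Olfml3 and Cyb561d2 had a single probe set. The difference between the strains was not tested for these transcripts, because the range of the strain means chose them.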

How the results depend on the processing

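The number of transcripts that met the rule depended on its limits. It was 8 with an HS SD under 0.15 and 94 under 0.25, 240 with a strain range of 0.75 or more and 5 with 1.5 or more, and 9 with the arrays of a strain within 0.25 and 72 without that limit. Quantile normalization gave 44, of which 33 were shared, and median centring 41, of which 36 were shared. Leaving out single arrays gave 39 to 248, the highest without the first BUF array and 79 without the second WKY array. In these counts the strain left with 1 array was under no limit on its arrays. Departures fell to 14 at a size of 1 or more. They ranged from 50 to 57 without single arrays, where the strain left with 1 array needed only that array beyond all HS arrays. Without single arrays the strain F test called 2130 to 5945 probe sets against 3700 (2130 and 2241 without the first and second ACI array, 2437 without the first M520 array, 5945 without the first BUF array), and 5 to 14 of the second probe sets against 9. HS against inbred ranged from 689 to 2185 against 1569 (689 without the second BUF array, 774 without the second F344, 851 without the first M520, 892 without the first BN, 1001 and 1034 without the second and first ACI array). Quantile normalization gave 1 probe set in the glucose comparison in place of 0. With the replicate block the F test called 3698 probe sets, 3357 of them shared, and 8 of the second probe sets. Of 371 values of second probe sets under alternatives, 326 kept their side of the threshold, 15 newly passed and 30 no longer passed. These counts do not describe the direction of the difference. On the second probe sets of Polb and Clcc1, the BUF arrays lay on opposite sides of the HS mean. Of 160 values of a member's furthest strain minus HS under alternatives, 154 moved by no more than the HS SD. Where an array was left out, the limit on the 2 arrays of a strain keeps such a move small by construction. Leaving out arrays and median centring of the departures and of HS against inbred, and all alternatives for gene lists and neighbours, were added after seeing the data. Where a value moved, the cause was not tested.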

Other observations

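A further 11 probe sets met the numerical limits without carrying 1 gene symbol, 1 of them with several symbols. They are counted here and were not named.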
